A study of Mus musculus with 35 samples.

Results

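Acetylation of histone H3 at lysine 27 (H3K27ac) was compared between cells on day 9 of reprogramming and embryonic stem cells (ESC) grown in serum. These were 4 libraries (2 at day 9, 2 of ESC) of the 35 samples of the series, 22 of which had a peak list. The 4 lists were merged on chromosomes 1 to 19 and X into 104507 regions. A region was still missing at day 9 when both ESC lists and no day 9 list held a peak in it (27992 regions), day 9-specific when both day 9 lists and no ESC list did (10966 regions), and common when all 4 lists did (19206 regions). The remaining 46343 regions were undecided between these classes.

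Day 9 cells were derived from mouse embryonic fibroblasts (MEF) with the genotype OKSM Col1a1 and M2rtTA ROSA26 on a C57BL/6 x 129 background. OKSM stands for the reprogramming factors Pou5f1, Klf4, Sox2 and Myc, and the cassette was expressed from an inducible transgene. Until collection the cells were kept in ESC medium containing ascorbic acid at 50 µg/ml and doxycycline at 1 µg/ml, so the transgenes were on, and cells positive for the surface marker SSEA1 were sorted. The ESC were the V6.5 line of the same mixed background, grown unsorted in serum and LIF on irradiated feeder cells, without doxycycline. Both day 9 libraries carried the batch label EA-3702 and both ESC libraries DG-3458, so stage, sorting, medium and batch cannot be told apart. The labels do not say whether the libraries of a stage came from separate cultures, and p-values then measure only the spread between libraries.

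H3K27ac marks active promoters and enhancers, and enhancers that control cell identity often lie in long stretches of it. In ESC such stretches surround genes of the naive pluripotency network, a set of transcription factors that hold the cells in a state like that of the early epiblast. During reprogramming the fibroblast program is shut down first, an epithelial program appears, and the pluripotency network is switched on late. KLF4, a zinc-finger factor of the reprogramming cocktail, binds GC-rich and CACCC-like elements.

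To show what such starts look like, 5 promoters are printed, chosen for their genes and not as typical of their classes. Each is the RefSeq window of the GRCm38.p6 assembly from 250 bases before to 50 bases after a gene start, read 5′ to 3′ on the strand of the gene. Capitals mark CpG dinucleotides, except in Sprr1a, which has none and where they mark TGANTCA, the letters bound by AP-1 factors. Klf4 (chr4:55532426-55532725, minus strand) had a common start. Tcl1 (chr12:105222688-105222987, minus strand), which codes for a co-activator of AKT kinases, and Dnmt3l (chr10:78049592-78049891, plus strand), a cofactor of the de novo DNA methyltransferases, had starts still missing at day 9. Acta2 (chr19:34255324-34255623, minus strand), smooth muscle actin, and Sprr1a (chr3:92485832-92486131, minus strand), a protein of the cornified envelope of keratinocytes, had day 9-specific starts.
Klf4: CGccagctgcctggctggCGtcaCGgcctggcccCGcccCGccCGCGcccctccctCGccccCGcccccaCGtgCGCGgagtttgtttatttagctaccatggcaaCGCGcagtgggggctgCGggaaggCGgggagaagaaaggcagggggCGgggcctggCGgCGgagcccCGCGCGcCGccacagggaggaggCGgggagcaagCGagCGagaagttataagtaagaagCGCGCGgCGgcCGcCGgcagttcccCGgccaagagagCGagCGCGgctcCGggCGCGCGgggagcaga
Tcl1: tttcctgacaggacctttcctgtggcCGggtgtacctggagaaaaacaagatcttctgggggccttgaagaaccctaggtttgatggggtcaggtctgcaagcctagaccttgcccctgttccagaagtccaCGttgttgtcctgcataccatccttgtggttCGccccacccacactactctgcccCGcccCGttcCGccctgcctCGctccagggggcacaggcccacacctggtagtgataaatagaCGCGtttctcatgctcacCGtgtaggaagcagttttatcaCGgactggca
Dnmt3l: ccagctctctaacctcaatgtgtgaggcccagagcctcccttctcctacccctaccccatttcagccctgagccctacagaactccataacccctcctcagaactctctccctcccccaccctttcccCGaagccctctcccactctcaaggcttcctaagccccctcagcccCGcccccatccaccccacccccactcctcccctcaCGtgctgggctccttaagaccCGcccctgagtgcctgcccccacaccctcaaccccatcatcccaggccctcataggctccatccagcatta
Acta2: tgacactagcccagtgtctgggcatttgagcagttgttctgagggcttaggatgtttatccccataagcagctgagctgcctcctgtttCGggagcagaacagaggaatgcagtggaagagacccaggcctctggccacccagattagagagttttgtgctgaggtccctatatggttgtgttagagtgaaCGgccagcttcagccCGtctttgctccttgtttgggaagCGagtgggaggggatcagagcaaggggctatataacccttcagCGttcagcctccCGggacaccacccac
Sprr1a: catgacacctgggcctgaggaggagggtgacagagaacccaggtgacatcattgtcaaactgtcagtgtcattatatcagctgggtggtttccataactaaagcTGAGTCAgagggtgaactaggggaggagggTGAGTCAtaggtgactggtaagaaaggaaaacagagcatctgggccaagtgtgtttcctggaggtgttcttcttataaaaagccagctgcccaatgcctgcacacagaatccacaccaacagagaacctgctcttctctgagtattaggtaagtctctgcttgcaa
The Klf4 window held 40 CpGs, the Tcl1 window 11, the Acta2 window 6 and the Dnmt3l window 4. The Sprr1a window held 2 matches to TGANTCA.

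Within 1 kb of these starts the strongest peaks, in the authors' fold enrichment, were as follows. At the Klf4 start the day 9 libraries had 22.6 and 25.7 and the ESC libraries 29.3 and 21.8, so the stages overlapped; the MEF libraries had 59.7 and 51.2. The Tcl1 start had a fold of 20.3 and 13.7 in ESC and no peak in the other 10 H3K27ac lists. KLF4 peaks lay there in both serum ESC lists (3.17 and 3.90) and in neither day 9 list. The Dnmt3l start had 16.9 and 17.6 in ESC, again with no other H3K27ac peak, and KLF4 peaks of 3.61 and 7.32 in serum ESC and none on day 9. The Acta2 start carried 37.9 and 41.9 in MEF, 17.8, 9.89 and 11.6 on day 3, 3.49, 3.28 and 4.91 on day 6, 8.14 and 6.77 on day 9, and no peak in ESC. Sprr1a had no peak in MEF, day 3 or day 6 and reached 4.44 and 4.34 on day 9, where the KLF4 lists held peaks of 6.48 and 6.74. Acta2 was thus listed in every stage from MEF to day 9, whereas Sprr1a was first listed on day 9.

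Over 19881 start windows of protein-coding genes the median window held 10 CpGs in the 730 still-missing starts, 10 in the 548 day 9-specific starts, 23 in the 9772 common starts and 3 in the 7404 starts without a peak. The letters GGGCGG, a GC box, were found on either strand in 46.8% of still-missing, 45.6% of day 9-specific and 69.3% of common starts, against 46.2% of all starts. TGANTCA occurred in 10.9% of day 9-specific starts, 4.93% of still-missing starts and 4.06% of common starts. The share over all starts was 7.13% and that of starts without a peak 11.3%. AAGGTCA, the half-site of orphan nuclear receptors such as ESRRB, occurred in 5.89% of still-missing, 3.47% of day 9-specific and 2.67% of common starts, against 4.08% of all starts and 5.94% of starts without a peak. CACCC was found in 67.0%, 70.8% and 63.1% of the same classes and 59.5% of all starts, and the octamer ATGCAAAT in 1.10%, 2.74% and 1.45%, against 1.66% of all starts. Both strands were searched for each of the 5 motifs, no motif contains another, and starts of a gene closer than 300 bp were counted together. A match describes the letters and not a bound site.

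Still-missing regions were the largest class when all listed peaks were used: 26.8% of the merged regions, against 10.5% day 9-specific and 18.4% common. Leaving out an ESC library raised still-missing regions to 47607 (replicate 1) or 48789 (replicate 2), and leaving out a day 9 library raised day 9-specific regions to 18496 (replicate 1) or 17918 (replicate 2). The order rested on the number of peaks listed. There were 43974 and 45506 peaks in the lists of day 9, as against 81971 and 81231 in those of ESC. When the 43974 strongest peaks of each list were taken, 12664 regions were still missing, 14102 were day 9-specific and 15824 were common, so that still missing became the smallest of the classes. Depth is not known from the lists, and signal too weak to be listed may lie where no peak was called.

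**Figure D1:**
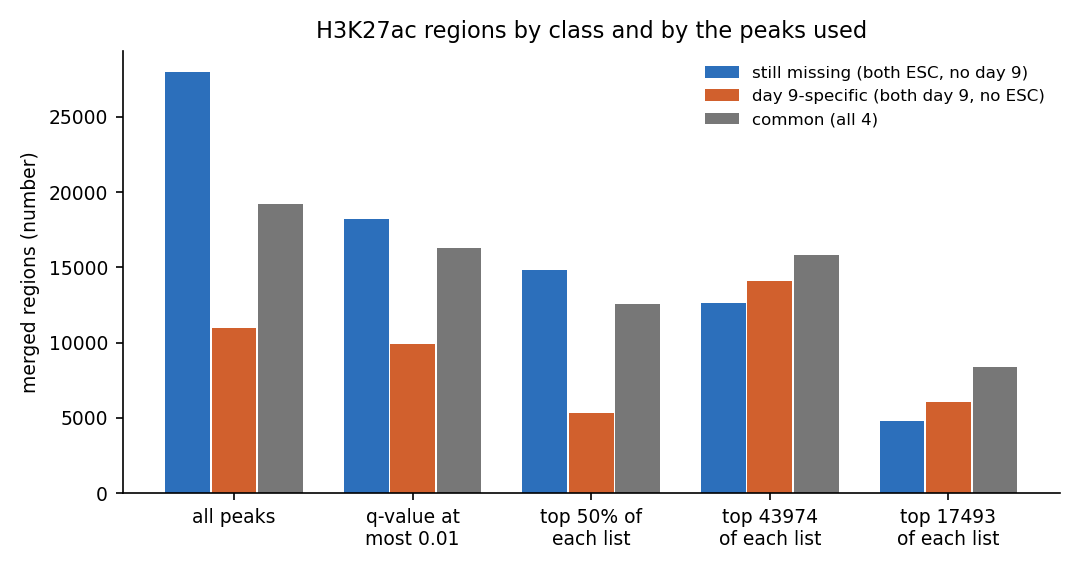
Number of merged H3K27ac regions (y axis) in each class for 5 choices of peaks (x axis). Still-missing regions outnumber day 9-specific ones with all peaks, 27992 to 10966, but not with equal numbers of peaks, 12664 to 14102 with the top 43974.

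Peaks covered 48.9 and 49.5 Mb at day 9 and 66.3 and 62.3 Mb in ESC, a difference of 15.0 Mb. The median peak was 763 and 735 bp wide at day 9 and 490 and 474 bp in ESC. Peaks at a gene start (within 1 kb) made up 23.0% and 22.8% of the day 9 lists and 16.3% and 16.9% of the ESC lists, whereas 55.9% and 57.0% of all start windows held a day 9 peak and 57.5% and 57.4% an ESC peak. In each measure the stages did not overlap, but 2 libraries against 2 cannot give a two-sided exact permutation p below 0.333, and that was the p for peak number, covered length, width and the share of peaks at starts; the share of start windows was not tested. With the top 43974 peaks of each list the difference in width turned to 49.8 bp wider in ESC, and the share at starts to 1.21 percentage points higher in ESC. With the top 17493 both kept their direction, at −303 bp and −4.92 points (ESC minus day 9), so equal numbers gave no single direction. The difference in covered length was 1.85 Mb with the top 43974 and turned to −0.623 Mb with the top 17493. The bases covered by either of 2 lists were shared to 0.702 (Jaccard index) between the day 9 libraries, to 0.665 between the ESC libraries and to between 0.271 and 0.278 across stages.

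The class rule bears on region length, since a common region joins peaks of all 4 lists and a longer region is more easily hit by each list. Width and place are therefore descriptions of the classes. The median width was 1939 bp for common, 877 bp for day 9-specific and 681 bp for still-missing regions. Of the common regions 43.8% lay at a gene start, against 5.45% of the day 9-specific and 4.02% of the still-missing regions, and 12% of all regions. Among the 17274 protein-coding genes with a start in the RefSeq table, the start was common in 8880 (51.4%), still missing in 585 (3.39%) and day 9-specific in 424 (2.45%).

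The strength of the peaks is tied to the classes in the same way, because strong peaks are more easily listed in all libraries. Of the 50173 regions in both ESC lists 55.8% were still missing. When these regions were split into 10 equal bins by the within-list rank of their peaks, the share was 82.9% in the weakest bin and 8.87% (445 regions) in the strongest. Of the 32511 regions in both day 9 lists 33.7% were day 9-specific, from 62.6% in the weakest bin to 0.954% (31 regions) in the strongest. The split and the folds used the same peaks as the classes and are descriptions. The median authors' fold was 4.37 and 4.07 for still-missing against 8.52 and 8.10 for common regions in the ESC lists, and 3.51 and 3.65 for day 9-specific against 7.77 and 8.67 for common regions in the day 9 lists.

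**Figure D2:**
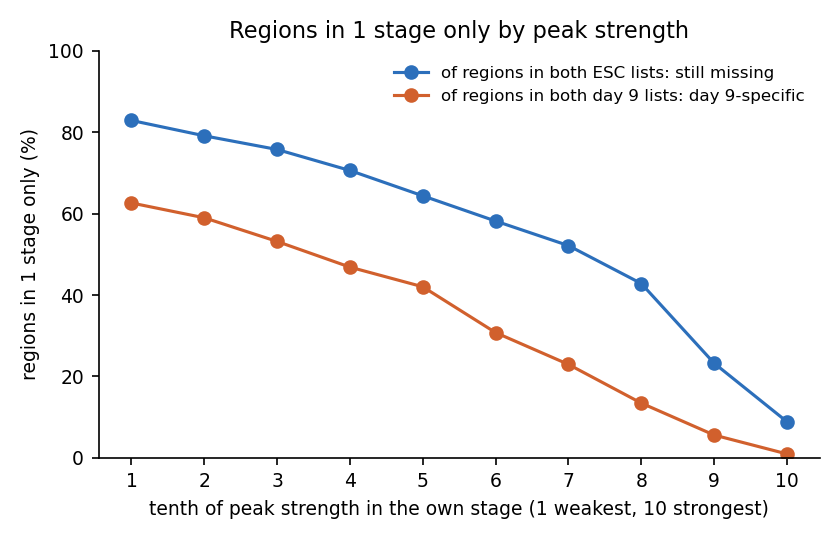
Share of regions found in a single stage (y axis, %) against the strength of their peaks in that stage (x axis, 10 equal bins of the mean within-list rank, 1 point per bin). Both lines fall, from 82.9% to 8.87% for ESC regions and from 62.6% to 0.954% for day 9 regions.

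The strongest still-missing regions lay next to or within genes of several kinds. The first, at chr9:31006983-31018872 (mm10), was 10.8 kb from Zbtb44, a zinc-finger gene, with an authors' fold of 42.9 and 37.4 in the ESC libraries and weak MEF peaks of 2.74 and 3.88. The second, at chr5:53550417-53562646, overlapped Rbpj, which codes for the DNA-binding factor of Notch signalling, with folds of 42.5 and 34.2 in ESC and 6.14 and 5.75 in MEF. No day 3 or day 6 list held either region, and KLF4 peaks overlapped both in all 4 ESC lists and in none of the 6 reprogramming lists. The next were at chr17:17192695-17201531 over the gene model Gm38396, at chr4:145867982-145872932, and at chr6:65024869-65028883, 13.7 kb from Smarcad1, a chromatin remodeller. The chromosome 4 region lies in a stretch of related zinc-finger genes, and the placement of its reads is uncertain.

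The strongest day 9-specific regions had been listed earlier. They lay at chr1:133984814-133987923, 49.3 kb from Fmod, at chr14:79675525-79678463, 13.3 kb from Cnmd, at chr7:90058580-90061286, 68.9 kb from Picalm, at chr17:49690015-49692601 within Kif6, and at chr5:76325768-76328933 over Pdcl2. The Fmod region had folds of 19.2 and 17.1 at day 9, and between 15.3 and 26.1 in the 3 day 3 libraries. The Cnmd region had 24.97 and 29.7 at day 9 and 16.8 to 21.4 on day 3. All 5 held KLF4 peaks in all 6 reprogramming lists. Of the ESC lists for KLF4, only those at the Cnmd region had peaks (4.24 and 4.67 in serum). The strongest common regions covered the starts of Rbm39 and of Dido1 and Gid8, parts of Clk1 and Bicral, and a region near Ptpdc1 (chr13:48544475-48547434), with folds of 36.5 to 60.3 at day 9 and 47.4 to 63.2 in ESC.

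Still-missing regions were grouped along the chromosomes. With neighbours joined up to the stitching distance commonly used for super-enhancers, 1047 clusters of at least 5 regions held 26.8% of them, against 69 clusters with 3.78% of the day 9-specific regions. The share was not adjusted for the number of regions in a class, which was larger for still-missing regions. The largest cluster ran over 146 kb at Tbx3 (chr5:119578416-119724294), a T-box factor of the naive network, with 30 still-missing regions. It held 49 and 47 peaks in the ESC lists, 2 and 2 at day 9, none in the 3 day 6 lists, 3, 8 and 8 on day 3 and 5 and 7 in MEF. The next clusters lay over Coil, Dgke, Elobl, Scpep1 and Trim25 (26 regions, chr11:88928307-89046834), Apobec3 and Cbx7 (23 regions, chr15:79843629-79971644), Hspb8 and Srrm4 (22 regions, chr5:116389003-116457576) and Khdc3, Rab27a and Rsl24d1 (22 regions, chr9:73050187-73126713). Cbx7 is the Polycomb subunit that prevails in ESC. Of day 9-specific clusters the 2 largest, with 12 and 11 regions on chromosome 6 (chr6:47657522-47685763 and chr6:47738194-47766305), lie over predicted gene models (Gm40363 in both), and the placement of their reads is uncertain. The others were at Dip2b (10 regions, chr15:100088812-100131424), Zfhx3 (9 regions, chr8:108885139-108929042) and Tmprss5 (9 regions, chr9:49079898-49125887).

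The pluripotency genes showed the contrast most plainly: most had some H3K27ac at day 9, but over a much shorter stretch than in ESC. The length under peaks was measured over each gene with 2.5 kb to each side. Over all 16029 protein-coding genes with a peak in any of the 4 lists, 36.3% were shorter in both day 9 libraries than in both ESC libraries and 42.4% were longer. Of the 18 genes of the naive pluripotency list 17 were shorter and 0 longer at day 9. With all peaks the naive list summed to 65.2 and 64.8 kb at day 9 and 262 and 256 kb in ESC, or 25.1% of the ESC mean. All 14 genes of the general pluripotency list were shorter at day 9, with 60.2 and 59.0 kb against 149 and 145 kb. The exception, Nr0b1 (Dax1), an orphan receptor, had 2.74 and 2.90 kb at day 9 and 2.52 and 3.11 kb in ESC, so its stages overlapped. With the top 43974 peaks of each list 16 of the 18 naive genes were shorter and 1 longer at day 9, and all 14 general genes were shorter. Over all protein-coding genes with a peak the shares were then 26.5% shorter and 52.4% longer.

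Esrrb, the orphan nuclear receptor of the naive network, had 1.8 and 2.29 kb under peaks at day 9 and 60.9 and 59.7 kb in ESC, with 18 still-missing regions in the gene. Its start at chr12:86421394-86421693 was itself still missing. Tfcp2l1, a grainyhead-like factor, had 6.60 and 6.27 kb at day 9 and 25.1 and 27.9 kb in ESC, and 9 still-missing regions. Tbx3 had 0.472 and 0.555 kb at day 9 and 18.2 and 18.4 kb in ESC. MEF had 5.87 and 5.98 kb over Tbx3 but no peak over Esrrb, so that the day 9 level of Tbx3 was below that of MEF and that of Esrrb above it.

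Nanog, the homeobox factor that stabilises the naive state, had 2.62 and 2.47 kb at day 9 and 9.50 and 8.44 kb in ESC, with 13 still-missing regions within 50 kb. Zfp42 (Rex1), a marker of naive cells, had 0.840 and 1.28 kb at day 9 and 8.57 and 7.78 kb in ESC. Neither had a peak in MEF. Prdm14, a zinc-finger repressor of the primed state, had no peak at day 9 and 5.14 and 5.28 kb in ESC. Dppa3 (Stella), a maternal factor that counters DNA methylation, also had none at day 9, but only 0.579 and 0.216 kb in ESC, in regions that were undecided. At Dppa3 nothing remained in either stage among the 43974 strongest peaks.

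Pou5f1 (OCT4), Sox2 and Klf4 are carried by the cassette, and reads from inserted exons cannot be told apart from those of the endogenous genes at day 9. Pou5f1 had 3.04 and 3.23 kb at day 9 and 8.60 and 7.45 kb in ESC. Sox2 had 0.825 and 0.793 kb at day 9 and 7.26 and 7.15 kb in ESC. Around these genes, within 50 kb, 14 regions each were still missing and 0 were day 9-specific. Klf4 had 4.97 and 5.04 kb at day 9 and 6.20 and 6.06 kb in ESC, the smallest gap among the listed KLF genes (Klf2, Klf4 and Klf5). Klf2 had 3.91 and 3.90 kb against 7.24 and 7.40 kb, with 19 still-missing regions within 50 kb, and Klf5 3.65 and 2.93 kb against 7.62 and 6.73 kb.

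Dppa2 and Dppa4, neighbouring genes for DNA-binding factors of the early embryo, had no peak at day 9; Dppa2 had 6.09 and 5.26 kb in ESC and Dppa4 3.91 and 3.90 kb. Dnmt3l had none at day 9 and 9.64 and 9.92 kb in ESC, where 7 still-missing regions lay in the gene. Mybl2, a cell-cycle factor, had 8.93 and 8.39 kb at day 9 and 33.0 and 32.0 kb in ESC. Tet2, which oxidises methylated cytosine, had 14.9 and 13.4 kb against 36.4 and 34.3 kb, whereas Tet3 had more at day 9, with 7.15 and 7.21 kb against 1.57 and 1.04 kb and a day 9-specific start.

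**Figure D3:**
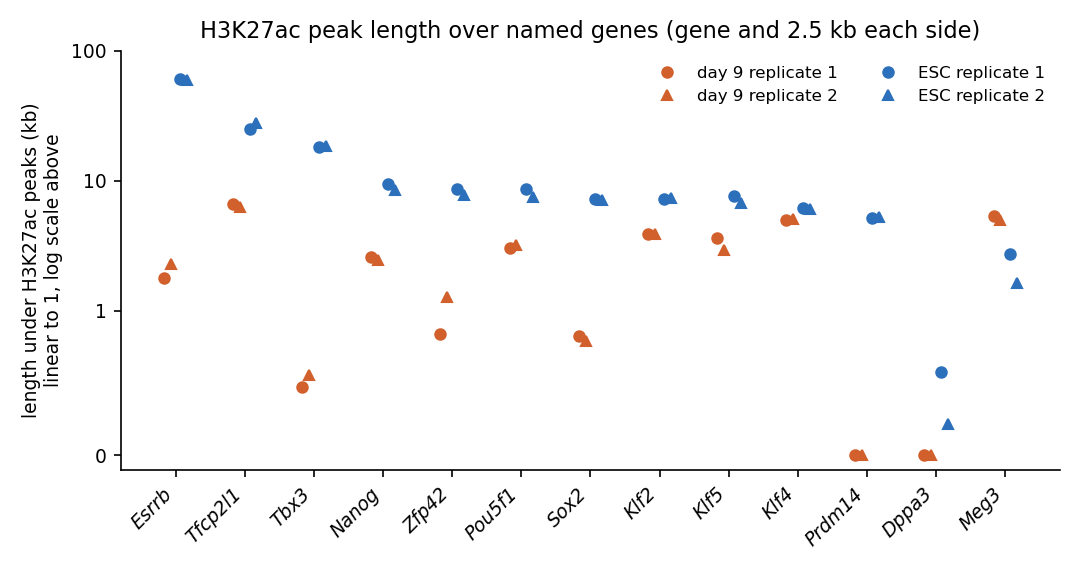
Length under H3K27ac peaks (y axis, kb, linear to 1 and logarithmic above) over named genes with 2.5 kb to each side (x axis). Each point is a library (circles replicate 1, triangles replicate 2). Day 9 lies below ESC at the first 12 genes, for example with 1.8 against 60.9 kb at Esrrb and 4.97 against 6.20 kb at Klf4 (replicate 1). It lies above ESC at Meg3.

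Genes of the formative and primed epiblast, the later state of the embryo's pluripotent cells, were also often shorter at day 9. Of the 15 with a peak 8 were shorter and 2 longer, against 36.3% and 42.4% of all protein-coding genes with a peak. Otx2, the homeobox factor of the formative state, had no peak at day 9 and 10.4 and 10.6 kb in ESC. Foxd3, a forkhead factor, had none against 6.11 and 6.04 kb, and Lef1, a WNT effector, none against 1.69 and 1.39 kb. Dnmt3a and Pou3f1 were the 2 longer ones, Pou3f1 with 3.09 and 3.57 kb at day 9 against 1.55 and 1.13 kb. Of the 10 genes of Nodal signalling 7 were shorter and 3 longer. The antagonist Lefty1 had 0.603 and 0.813 kb at day 9 and 3.39 and 3.16 kb in ESC.

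Epithelial genes went the other way, with 14 of 20 longer at day 9 and 2 shorter. The shares over all protein-coding genes with a peak were 42.4% and 36.3%. Epcam, an adhesion molecule of epithelia, had 4.26 and 4.94 kb at day 9 and 1.20 and 1.19 kb in ESC. Grhl2, a grainyhead factor of epithelial enhancers, had 15.5 and 13.7 kb against 5.03 and 4.84 kb, with 4 day 9-specific regions in the gene. Esrp1, an epithelial splicing factor, had 6.55 and 6.18 kb against 0.305 and 0.226 kb. Neither Epcam, Grhl2 nor Esrp1 had a peak in MEF, but 11 and 10 of the 20 genes did, over 16.5 and 15.6 kb. Against MEF 18 of the 20 were longer at day 9 and 2, the keratins Krt7 and Krt19, were shorter. The share over all protein-coding genes was not counted against MEF, whose lists held more peaks than those of day 9. The 2 genes shorter than in ESC were Cldn4 and Cdh1 (E-cadherin), Cdh1 with 23.8 and 20.9 kb at day 9 against 37.0 and 37.9 kb in ESC. In the gene windows of the epithelial list 0 of 20 genes were day 9-specific and 18 were common. The shares over all 21631 protein-coding genes were 2.66% and 59%. Nearly all listed genes thus had a peak in both stages. Among the common ones, the lengths of Ap1m2, Krt18 and Rab25 overlapped between day 9 and ESC.

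Of 12 keratinocyte genes with a peak 8 were longer at day 9 and 3 shorter, against 42.4% and 36.3% of all protein-coding genes with a peak. Krt5, Krt14, Krt6a and Sprr1a were day 9-specific as genes, 4 of the 15 listed, against 2.66% of all protein-coding genes. Krt14, a basal keratin, had 0.536 and 0.489 kb at day 9, and Krt6a, a stress keratin, 1.57 and 0.892 kb. Ehf, an epithelial ETS factor, had 15.2 and 12 kb at day 9 and 2.73 and 2.44 kb in ESC, with 7 day 9-specific regions. Krt16, Ivl and Ly6d had no peak in any of the 4 lists. Keratin genes lie in arrays of related copies, and peaks over them may share reads.

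The list of AP-1, RUNX and TEAD factors, which act in fibroblast and stress-responsive enhancers, also holds Cebpb, a factor of another family. In this list H3K27ac was longer at day 9 for 12 of 13 genes, against 42.4% of all protein-coding genes with a peak. With equal numbers of peaks that share over all genes was 52.4%. As genes all 13 were common, against 59% of all protein-coding genes. Fosl1 had 2.42 and 3.23 kb at day 9 and 1.42 and 1.25 kb in ESC, against 5.74 and 5.31 kb in MEF. Runx1 had 10.6 and 11.8 kb at day 9, 5.96 and 4.72 kb in ESC and 22.9 and 21.1 kb in MEF. Junb was the exception, with 5.83 and 5.37 kb at day 9 and 6.09 and 6.10 kb in ESC. Against MEF 11 of the 13 were shorter at day 9. Fos was longer (4.08 and 4.19 kb against 4.02 and 4.06 kb), and Tead1 overlapped (32.7 and 38.2 kb against 35.1 and 34.5 kb). The MEF lists held more peaks, and the share over all protein-coding genes against MEF was not counted. Of 12 housekeeping genes 7 were shorter than in MEF and 4 longer.

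Of the 12 FGF-ERK genes 9 were longer at day 9 and 3 shorter, against 42.4% and 36.3% of all protein-coding genes with a peak. Spry4, an inhibitor of receptor signalling, had 12.6 and 12 kb at day 9 and 2.89 and 3.74 kb in ESC, and Dusp4, an ERK phosphatase, 8.61 and 8.14 kb against 3.12 and 2.96 kb. The ETS factor Etv5 was shorter at day 9, with 27.02 and 27.7 kb against 35.7 and 34.7 kb. Among the 11 genes of the LIF-STAT3 and BMP-ID list 6 were longer (54.5%) and 4 shorter (36.4%), not far from the shares over all genes. The list summed to 101% of its ESC length. The BMP targets Id1, Id2 and Id3 were longer than in ESC, Id1 with 6.16 and 6.13 kb at day 9 against 0.525 and 0.727 kb. MEF already had 6.16 and 6.16 kb over Id1. Over Id3 both MEF and both day 9 libraries had 6.57 kb. Id2 had 4.49 and 4.52 kb in MEF and 6.44 and 6.31 kb at day 9. Bmp4, a ligand of the pathway, had none at day 9 and 2.87 and 2.16 kb in ESC. Of the LIF side, Lifr, the receptor subunit for LIF, had 1.22 and 1.46 kb at day 9 and 16.5 and 16.4 kb in ESC, and Socs3, a STAT3 target, 3.29 and 4.44 kb against 7.45 and 7.48 kb.

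Fibroblast genes had far shorter H3K27ac than in MEF: all 24 were shorter in both day 9 libraries than in both MEF libraries. The MEF lists were longer, with 88070 and 88347 peaks against 43974 and 45506 at day 9. The share over all protein-coding genes against MEF was not counted. Of the 12 housekeeping genes 7 were shorter than in MEF and 4 longer. Against ESC, of the 20 with a peak 10 were longer and 5 shorter at day 9, against 42.4% and 36.3% of all protein-coding genes. With the top 50% of each list 4 genes were longer and 3 shorter. Over all protein-coding genes with a peak the shares were then 44.8% longer and 32.9% shorter. Of all 24 listed genes 16 and 15 had a peak in the day 9 lists and 14 and 13 in the ESC lists, over 23.5 and 30.6 kb and 30.0 and 28.5 kb, whereas all 24 had one in both MEF lists, over 262 and 262 kb. Fn1 (fibronectin) made up much of the ESC sum, with 5.86 and 5.61 kb at day 9, 16.1 and 16.2 kb in ESC and 6.73 and 6.30 kb in MEF. Without Fn1 the list summed to 17.7 and 24.96 kb at day 9 and 13.9 and 12.3 kb in ESC, so the stages overlapped only with it. Col1a2, Col3a1, Postn and Thy1, defining fibroblast genes, had no peak in any of the 4 lists. Acta2, Col5a2, Col6a1, Col6a2 and Dcn were day 9-specific and Lum and Twist2 still missing as genes. Col6a2 had 1.15 and 1.46 kb at day 9, none in ESC and 3.24 and 3.04 kb in MEF. Prrx1, a mesenchymal homeobox gene, had 1.24 and 2.57 kb at day 9, 0.243 and 0 kb in ESC and 31.5 and 32.1 kb in MEF. Feeder cells are fibroblasts, and their part in the ESC values was not tested.

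In the Dlk1-Dio3 domain, an imprinted cluster whose maternal RNAs are often silenced in reprogrammed cells, the maternal RNA gene Meg3 had 5.40 and 4.95 kb at day 9 and 2.76 and 1.62 kb in ESC. Rian and Rtl1 were day 9-specific as genes, Rian with 1.29 and 0.964 kb. Meg3, Rian and Rtl1 made 3 of 6 genes that were longer at day 9, but with the top 50% of each list 1 was. Dio3, at the far end, was still missing, with none at day 9 and 5.95 and 5.70 kb in ESC. Of 9 germline genes with a peak 5 were shorter and 2 longer at day 9, and 3 and 2 with equal numbers of peaks. Stra8, Sycp3, Sycp1, Ddx4 and Tex11, which act in meiosis or germ cells, had no peak at day 9, and ESC values ran from 0.310 kb at Ddx4 to 1.45 kb at Stra8. The share of germline genes that were still missing was 5 of 10, against 5% of all protein-coding genes. Of 12 extraembryonic genes with a peak 8 were shorter and 1 longer at day 9, but 3 and 3 with equal numbers of peaks. Gata3, a trophoblast factor, had 0.318 and 0 kb at day 9 and 8.98 and 10.6 kb in ESC. Over all protein-coding genes with a peak 36.3% were shorter and 42.4% longer at day 9. Of 12 housekeeping genes 4 were shorter and 4 longer, and all 12 were common as genes. With equal numbers of peaks 2 were shorter and 7 longer, against 26.5% and 52.4% of all protein-coding genes.

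**Figure D4:**
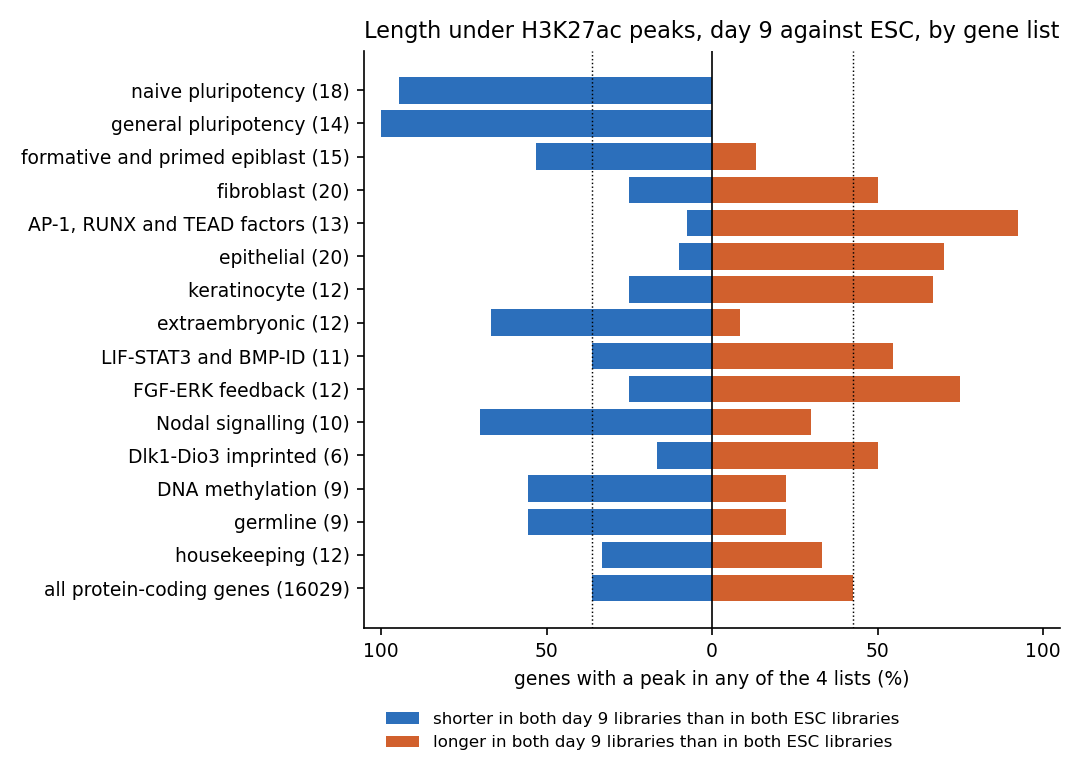
Share of genes (x axis, %) in each list (y axis, with the number that had a peak in any of the 4 lists) whose length under H3K27ac peaks was shorter (left) or longer (right) in both day 9 libraries than in both ESC libraries. Dotted lines mark the shares over all protein-coding genes, 36.3% and 42.4%. The pluripotency lists lie left of them and the AP-1, epithelial and FGF-ERK lists right.

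The earlier stages, which were not used to define the classes, were read at the same regions. They are still not independent of the class rule, which selects by absence or presence at day 9. The order from MEF to day 6 runs toward day 9, so a fall in the still-missing or ESC-type share is partly built in. How much of the slopes this selection sets was not tested. H3K27ac lists were available for MEF (2), day 3 (3) and day 6 (3). Day 3 cells were unsorted and day 6 cells sorted, and the part of sorting in the slopes was not tested. Still-missing regions were mostly absent throughout: 83.1% had no peak in any of the 8 libraries, against 40.7% of day 9-specific, 13.9% of common and 61.6% of all regions. Peaks lay in 11.9% and 11.9% of still-missing regions in the MEF libraries, in 5.37%, 4.77% and 3.21% on day 3, and in 0.175%, 0.0536% and 0.289% on day 6. The stages did not overlap. The slope was −5.75 percentage points per stage (exact permutation test, two-sided, 8 libraries, p = 0.00179, the smallest that 560 labelings allow, adjusted p = 0.0107 over 12 tests).

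Day 9-specific regions were mixed in their earlier listing. A peak lay in 27% of them in each MEF library, in 41.2%, 35.7% and 30.3% on day 3 and in 12.8%, 9.11% and 25.5% on day 6. Over all merged regions the shares were 26.4% in each MEF library, 24.9%, 22.3% and 19.7% on day 3 and 12.6%, 11.3% and 16.2% on day 6. Both MEF libraries held 24.4% of day 9-specific regions, near the 24.5% of all regions. A further 17.96% were in neither MEF library but in at least 2 libraries of day 3 or of day 6, against 5.11% of all regions. The slope of −6.71 points per stage did not pass (exact permutation test, p = 0.191, adjusted p = 0.328). The batch moved with it: on day 6 the EA-3702 library had 25.5% and the DG-3458 libraries 12.8% and 9.11%, and on day 3 41.2% against 35.7% and 30.3%. Its part in the result was not tested beyond a permutation within batches, which gave a slope of −8.88 points (adjusted p = 0.116). Common regions had peaks in 70.1% and 70.2% in MEF, between 65.9% and 74.2% on day 3 and between 53.5% and 66.0% on day 6 (slope −6.05, exact permutation p = 0.0411, adjusted p = 0.126); permuted within batches the slope was −7.51 and passed (exact permutation test, adjusted p = 0.0444).

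The ESC-type share is the percentage of still-missing regions among all still-missing and day 9-specific regions with a peak in a library. The class sizes alone give 71.9% (27992 of 38958 regions). The share was 53.0% and 52.9% in MEF, 24.98%, 25.4% and 21.3% on day 3, and 3.38%, 1.48% and 2.82% on day 6, without overlap. The slope was −24.9 points per stage (exact permutation test, p = 0.00179, adjusted p = 0.0107). These falls ran along with shorter lists, from 88070 and 88347 peaks in MEF to 17493 to 22462 on day 6. With the 17493 strongest peaks of every list the ESC-type share still fell, by 7.10 points per stage, and the still-missing share by 2.78 (exact permutation tests, adjusted p = 0.00714 for both). With classes from the top 43974 peaks and the earlier lists whole the ESC-type slope was −11.95 and the still-missing slope −5.70 (exact permutation tests, adjusted p = 0.0107 for both). With the top 17493 the day 9-specific share rose by 11.1 points and the common share by 5.46 points per stage (exact permutation tests, adjusted p = 0.0268 and 0.00714), so the direction for these 2 classes depended on the peaks used. Leaving out any of the 3 day 6 libraries in turn left the slopes of the ESC-type and still-missing shares at an adjusted p of 0.0571, with a smallest p of 0.00952 in that design. Slopes without a day 6 library ran from −25.4 to −24.9 points for the ESC-type share.

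KLF4 peaks overlapped more common regions than regions of either single-stage class in every day 9 and ESC list. At day 9 KLF4 peaks overlapped 39.7% and 41.3% of day 9-specific regions and 3.20% and 3.6% of still-missing regions. In serum ESC they overlapped 6.56% and 13.1% of day 9-specific and 8.89% and 16.5% of still-missing regions. Within each serum ESC library the still-missing share was the higher of the 2, and within each day 9 library the day 9-specific share was. Of all merged regions KLF4 peaks overlapped 17.9% and 18.99% at day 9 and 13.5% and 21.01% in serum ESC. The still-missing share was below that of all regions in each of these libraries. The day 9-specific share was above it at day 9 and below it in serum ESC. In ESC grown with MEK and GSK3 inhibitors (2i) KLF4 peaks overlapped 5.23% and 6.16% of day 9-specific and 13.5% and 16.8% of still-missing regions. The share of all merged regions was 16.07% and 18.08% there. Common regions held KLF4 peaks in 54.9% and 58.4% at day 9 and in 47.6% and 65.6% in serum ESC, and the stages overlapped.

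The day 3 and day 6 libraries had values near those of day 9. The share of still-missing regions with a KLF4 peak was 4.55% and 2.61% on day 3 and 2.39% and 3.09% on day 6, and that of day 9-specific regions 43.5% and 32.5%, and 28.6% and 39.9%. Computed on KLF4, the ESC-type share was 21.1% and 17.0% on day 3, 17.6% and 16.5% on day 6, 17.1% and 18.2% on day 9, and 77.6% and 76.3% in serum ESC, against the 71.9% given by the class sizes; the day 3 to day 9 values lay far below that base and the serum ESC values near it. The slopes over day 3, day 6, day 9 and serum ESC did not pass after adjustment (exact permutation tests, two-sided, 8 libraries). By exact permutation they were 2.80 points per stage for still-missing regions (p = 0.0429, adjusted p = 0.126), −7.84 for day 9-specific regions (p = 0.0675, adjusted p = 0.135), 0.604 for common regions (p = 0.798) and 17.4 for the ESC-type share (p = 0.0524, adjusted p = 0.126). With equal numbers of peaks the slopes for still-missing regions (4.55) and the ESC-type share (15.7) passed (exact permutation tests, adjusted p = 0.00714). With classes from the top 43974 peaks and the KLF4 lists whole they were 5.25 and 14.7 and did not pass (exact permutation tests, adjusted p = 0.0833 for both). Leaving out the EA-2643 library of serum ESC took the still-missing slope to 1.25, and leaving out EA-2697 took the day 9-specific slope to −4.99. Without the EA-3702 library of day 3 the ESC-type slope was 20.8 (exact permutation test, adjusted p = 0.0381). Serum ESC shared no batch with the reprogramming libraries for KLF4, so stage and batch cannot be told apart there. Within batch EA-3702, which held 1 library in 2i, the ESC-type share was 86.8% in 2i and 21.1%, 17.6%, 17.1% and 18.2% in the day 3, day 6 and day 9 libraries.

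**Figure D5:**
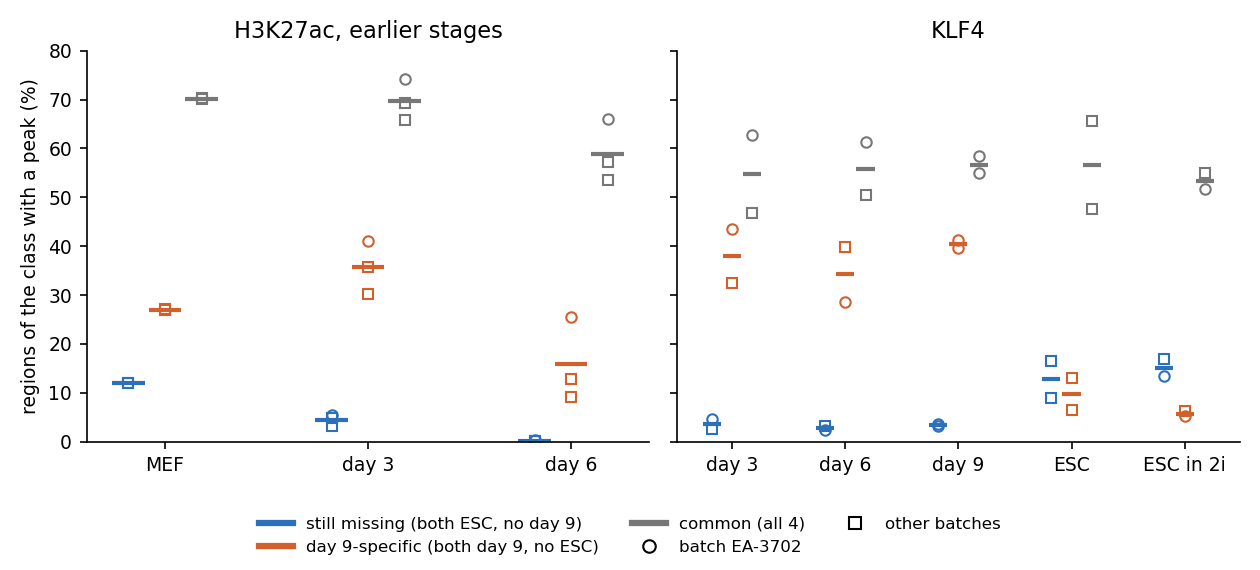
Percentage of the regions of each class with a peak (y axis) in the H3K27ac lists of earlier stages (left) and in the KLF4 lists (right), by stage (x axis). Each point is a library, circles for batch EA-3702 and squares for others, and bars are means. Still-missing regions fall from 11.9% in MEF to 0.289% or less on day 6, and KLF4 in day 9-specific regions is at 39.7% and 41.3% on day 9 against 6.56% and 13.1% in serum ESC.

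KLF4 peaks overlapped only part of each class. Both day 9 KLF4 lists and no serum ESC list overlapped 2620 day 9-specific regions (23.9%), against 4.39% of all merged regions. Both serum ESC lists and no day 9 list overlapped 1489 still-missing regions (5.32%), against 3.03% of all. No KLF4 peak of any of the 10 lists lay in 69.9% of still-missing, 33.1% of day 9-specific and 12.1% of common regions. At gene starts KLF4 was more evenly spread: it lay at day 9 in 11.3% ± 1.51 (SD, n = 2) of still-missing regions at a start and 35.1% ± 1.42 of day 9-specific ones, and in serum ESC in 23.1% ± 8.17 and 21.4% ± 8.75. Away from starts the day 9 shares were 3.07% ± 0.229 and 40.8% ± 1.10, and those in serum ESC 12.3% ± 5.28 and 9.14% ± 4.36.

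On the X chromosome 34.0% of the regions were still missing, above the range of the autosomes (24.7% on chromosome 19 to 28.4% on chromosome 5), while 9.47% were day 9-specific and 19.1% common, both within the range of the autosomes. X-linked peaks made up 2.09% and 2.1% of the day 9 lists and 2.49% and 2.42% of the ESC lists. The sex of the fibroblasts is not given in the labels.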

How the data were processed

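ChIP-seq peak lists of 22 libraries were used, 12 for H3K27ac and 10 for KLF4. The 13 input samples were not analysed here. The submitters' processing notes name the build mm10 (GRCm38), cutadapt 1.8.1, Bowtie2 2.2.5, MACS2 2.1.1 and deepTools 2.3.6, without roles. The authors deposited 1 list per library, each peak with a score, its fold enrichment (a ratio), −log10 p and −log10 q. These are the authors' values and served only to rank, filter or describe peaks within a list. Read depth is unknown.

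Peaks on chromosomes 1 to 19 and X were merged (1 bp overlap) and classed in Python 3.11.15 (numpy 2.4.6, pandas 2.3.3), and figures were drawn with matplotlib 3.10.9. Gene names and starts came from RefSeq GRCm38.p6. All 194 listed genes (15 lists) matched, and 127 had a start there. Libraries were compared by two-sided exact permutation of their single values, adjusted over 12 tests (Benjamini-Hochberg, threshold 0.05). Code was tested on simulated lists. The members, gene lists and motifs were chosen with earlier results of these data known. Named genes were the best-ranked members of each list per class and 13 pluripotency and imprinted genes; others were chosen after their values were seen. Alternatives were the top 50% of each list, equal numbers of top peaks, a q-value of at most 0.01, 50% overlap, classes from any library, leaving out each library, and permutation within batches or replicate numbers.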

Additional observations from a re-analysis of the deposited data

Results flagged for a closer look

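Chromosome Y was outside the comparisons. It held 0.127% and 0.127% of the peaks in the day 9 lists (56 and 58 peaks) and 0.089% and 0.075% in the ESC lists (73 and 61 peaks). In the MEF lists it held 0.0193% and 0.0192% (17 and 17 peaks). Both stages were above the MEF libraries, which are the starting cells.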

How the results depend on the processing

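The ESC-type and still-missing slopes at earlier stages kept their direction under every alternative run. With all peaks 27992, 10966 and 19206 regions were still missing, day 9-specific and common. The top 50% of each list gave 14833, 5321 and 12557, a q-value of at most 0.01 gave 18203 still missing, and classes from any library gave 56791 and 21972 for the first 2. The top 43974 peaks of each list gave 12664 still missing, and the top 17493, chosen after seeing the data, 4783, 6027 and 8385. Leaving out a library gave 29552 to 48789, 12034 to 18496 and 20444 to 21368. An overlap of 50% changed no class by construction. The top 43974 peaks turned the difference in width to 49.8 bp and in start share to 1.21 points, whereas the top 17493 kept both (−303 bp and −4.92 points) and turned covered length to −0.623 Mb. Equal numbers turned the earlier-stage slopes of day 9-specific and common regions to 11.1 and 5.46 and took KLF4 at still-missing regions (4.55) and the KLF4 ESC-type share (15.7) past the threshold. Equal numbers give no difference in peak number by construction. Leaving out a library gave slopes of −29.0 to −20.4 for the ESC-type share, −6.51 to −5.45 for still-missing regions, −1.40 to 2.74 for KLF4 at common regions and 13.1 to 20.8 for the KLF4 ESC-type share; for KLF4 at still-missing and day 9-specific regions they gave 1.25 to 3.53 and −10.1 to −4.99. Classes from the top 43974 peaks with the other lists whole, chosen after seeing the data, changed no call. KLF4 at common regions was −0.399 at a q-value of at most 0.01. Permutation within batches gave −7.51 for common regions at earlier stages (adjusted p = 0.0444). For KLF4 it gave −0.291, 0.871 and −2.18 for still-missing, day 9-specific and common regions and −1.39 for the ESC-type share; serum ESC libraries stand alone in their batches and add nothing there. The cause of the other changes was not tested.

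The replicate block within batch DG-3458 gave −25.3 for the ESC-type share and −5.90 for still-missing regions, with p = 0.0556, the smallest that these exact permutations allow. For day 9 against ESC the replicate block gave p = 0.500, also the smallest possible in the exact permutation test. Peak names inside the 2 day 6 lists of batch DG-3458 carry each other's replicate number, so the numbers in that block are in doubt. The numbers are shared names only: differences between same-numbered day 9 and ESC libraries correlated at 0.0036 over 19206 common regions. Gene lists kept their larger side with equal numbers of peaks for the pluripotency, AP-1, epithelial, keratinocyte, FGF-ERK and Nodal lists. The extraembryonic list did not. Over all protein-coding genes with a peak 52.4% were then longer and 26.5% shorter at day 9. For the AP-1, epithelial, keratinocyte and FGF-ERK lists, keeping more longer genes was therefore also the direction of all genes.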
